A study of Rattus norvegicus with 21 samples.

Results

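The proteasome is the barrel-shaped protease that breaks down proteins tagged with ubiquitin. Its 20S core is a stack of outer rings of alpha subunits (Psma genes), which form the gate, and inner rings of beta subunits (Psmb genes), of which β1, β2 and β5 cut the substrate. The 19S cap that makes it a 26S proteasome has a base with a ring of ATPases (Psmc genes), which unfold the substrate and push it into the core, and a lid that removes the ubiquitin chain. Interferon-γ is known to swap the catalytic beta subunits for immunoproteasome versions (Psmb8, Psmb9 and Psmb10), which favours peptides for display by MHC class I, and a constitutive subunit set is made in nearly all cells, including insulin-secreting ones.

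The genes described here are the constitutive subunits: all genes on the array named Psma1 to Psma7, Psmb1 to Psmb7, Psmc1 to Psmc6 or Psmd with a number. The rule named 34 genes, and 33 of them, among 13438 genes in all, had a probe set annotated to that gene alone. Psmb6, the catalytic β1 subunit, shares its probe set with a second gene and gave no value. Each gene was read by its single-symbol probe set with the highest mean over the 21 arrays, and all 33 lay above background on every array. By role they were 7 alpha ring genes, 6 beta ring genes, 6 base ATPases, 3 base non-ATPases (scaffolds and a ubiquitin receptor), 8 lid genes and 3 chaperones that help assemble the base.

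RNA was measured on Affymetrix arrays in INS-1 cells, a rat insulinoma line that secretes insulin, with 3 arrays in each of 7 groups. The pCTSH1 cells are 1 clone stably carrying a plasmid for cathepsin H (CTSH), a lysosomal protease, so a clone effect and an effect of CTSH cannot be told apart. The pcDNA cells carry the empty vector, and both lines were sampled after 0, 6 and 16 h of 150 pg/ml recombinant mouse IL-1β with 5 ng/ml recombinant rat IFNγ, following 3 days of culture. The INS1 group is untransfected and untreated. No arrays of untreated cells at 6 or 16 h were used here, so cytokine exposure and added time in culture cannot be told apart. Replicates are numbered, but nothing says that they came from separate cultures, so a p-value here speaks only of the spread among these arrays, which may be technical.

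Array medians ran between 4.88 and 5.08 on the log2 scale and replicates correlated at 0.992 to 0.997 over all probe sets. No 2 arrays held identical values. All 6 measured beta cell markers of a list of 8 were above background on all arrays. Their summed linear level was 37004 to 38209 in pCTSH1 cells at 16 h, against 45366 to 45924 at 0 h, and 33404 to 34753 in pcDNA cells at 16 h, against 44192 to 46051 at 0 h. The sum mainly follows the brightest markers, Ins1, Ins2, Iapp and Chga. All 6 had lower means at 16 h than at 0 h in both lines. Mean log2 levels of Nkx6-1 went from 9.04 to 5.26 in pCTSH1 and from 8.46 to 5.45 in pcDNA cells. Those of Pdx1 went from 9.69 to 7.96 and from 9.73 to 7.74. Of 13 measured markers of blood, fibroblast and endothelial cells, Cd68 was the one above background on all arrays of every group, with Pecam1 added in pcDNA cells at 6 h. Cd68, a macrophage marker, rose at 16 h by 1.24 ± 0.19 in pCTSH1 and 0.83 ± 0.19 in pcDNA cells (limma). The summed level of those markers was 194 to 226 in pCTSH1 cells at 16 h, against 170 to 186 at 0 h, and 192 to 205 in pcDNA cells at 16 h, against 173 to 184 at 0 h. The actin 3′ minus 5′ signal, a sign of RNA quality, was 0.595 to 0.684 in pCTSH1 cells at 16 h, against 0.767 to 0.993 at 0 h. In pcDNA cells it was 0.744 to 0.862 at 16 h, against 0.787 to 0.983 at 0 h. The same measure for GAPDH was -0.213 to -0.147 in pCTSH1 cells at 16 h, against -0.280 to -0.186 at 0 h. For pcDNA cells it was -0.278 to -0.225 at 16 h, against -0.225 to -0.198 at 0 h. The part of these shifts in the 16 h results below was not tested, and in a bulk sample fewer cells of a type and less RNA per cell cannot be told apart. The probe set of the transfected gene's rat counterpart, Ctsh, read near background and did not pass the test between pCTSH1 and pcDNA cells at 0 h (log2 difference 0.10 ± 0.20, limma adjusted p = 0.945). Whether it detects the plasmid's transcript is not given in the sources used here.

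The promoters of 5 subunits whose responses differ in shape are shown here, because the results below return to them. They are the 250 bases before the annotated start (RefSeq, build GRCr8), 5′ to 3′ on the gene's strand. Psma6 had the highest early rise (chr6:78514097-78514346, plus strand), Psma3 rose early and fell late (chr6:95219499-95219748, plus strand), Psmb3 had the lowest late log2 difference from 0 h (chr10:83193537-83193786, plus strand), Psmc5 was lower at both times (chr10:91687303-91687552, plus strand) and Psmd9 was higher late in pCTSH1 cells (chr12:39018265-39018514, minus strand). Capitals mark the core of the antioxidant response element, TGACNNNGC, which NFE2L1 and NFE2L2 are known to bind, and the CCAAT box, CCAAT, bound by NF-Y, on either strand.
Psma6: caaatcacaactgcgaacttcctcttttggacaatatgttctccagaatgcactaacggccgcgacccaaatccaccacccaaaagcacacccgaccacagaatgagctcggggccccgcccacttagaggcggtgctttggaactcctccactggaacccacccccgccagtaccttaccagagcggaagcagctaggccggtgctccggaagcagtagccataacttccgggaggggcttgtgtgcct
Psma3: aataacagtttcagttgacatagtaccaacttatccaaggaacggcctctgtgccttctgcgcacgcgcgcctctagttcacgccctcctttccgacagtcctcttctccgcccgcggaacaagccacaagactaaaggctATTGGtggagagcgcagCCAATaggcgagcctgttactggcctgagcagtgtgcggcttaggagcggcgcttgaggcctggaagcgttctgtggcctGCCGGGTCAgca
Psmb3: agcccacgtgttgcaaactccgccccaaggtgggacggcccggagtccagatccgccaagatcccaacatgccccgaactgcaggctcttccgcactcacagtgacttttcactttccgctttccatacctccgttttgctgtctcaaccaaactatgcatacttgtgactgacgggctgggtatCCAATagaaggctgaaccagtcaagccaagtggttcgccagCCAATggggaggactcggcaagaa
Psmc5: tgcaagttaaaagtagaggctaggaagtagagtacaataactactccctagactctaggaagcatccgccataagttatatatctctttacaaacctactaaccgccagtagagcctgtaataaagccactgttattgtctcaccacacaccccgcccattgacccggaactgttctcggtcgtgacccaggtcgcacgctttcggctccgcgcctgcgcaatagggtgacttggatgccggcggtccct
Psmd9: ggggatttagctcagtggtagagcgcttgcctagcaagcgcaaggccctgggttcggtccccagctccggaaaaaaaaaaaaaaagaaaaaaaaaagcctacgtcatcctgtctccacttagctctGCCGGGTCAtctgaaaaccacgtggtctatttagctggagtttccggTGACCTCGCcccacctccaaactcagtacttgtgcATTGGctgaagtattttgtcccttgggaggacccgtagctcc
Neither motif was in the Psma6 and Psmc5 windows. Over the 29 subunit genes with a promoter entry, 16 held a CCAAT box (55.2%), against 34.0% of all 33469 promoters of the same length. The alpha ring had it in 5 of 6 promoters, the beta ring in 4 of 6, the base ATPases in 2 of 6, the lid in 2 of 5, the base non-ATPases in 1 of 3 and the chaperones in 2 of 3. TGACNNNGC was in 5 of the 29 (17.2%, against 10.1% of all promoters), namely Psma3, Psmb2, Psmb5, Psmd1 and Psmd9. Cytokine motifs, chosen after the values were seen, were searched on both strands too. An interferon-stimulated response element, read as GAAA, any 2 bases and GAAA, was in Psma4, Psmb3 and Psmd7 (10.3%, against 3.41% of all promoters), and the gamma-activated site TTCNNNGAA in Psmc6, Psmd3 and Psmd7 (10.3%, against 7.67%). A match is a description of these letters and not of binding.

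After 6 h of cytokines all 7 alpha ring genes were higher in both lines on the probe sets used, while most other subunits had not passed the test. In pCTSH1 cells 9 of the 33 genes rose and 3 fell, where 10.7% of all probe sets rose and 16.0% fell (limma, adjusted p below 0.05). In pcDNA cells 10 rose and 3 fell, where 12.1% of all probe sets rose and 18.5% fell. The subunits are brightly read, and among the brighter 50% of probe sets 19.5% rose and 32.1% fell in pCTSH1 cells. In pcDNA cells 21.3% of those brighter probe sets rose and 35.9% fell. All 7 alpha genes were among the risers in each line, with median log2 differences of 0.48 in pCTSH1 and 0.45 in pcDNA cells. Outside the alpha ring 2 of 26 genes rose and 3 fell in pCTSH1 cells, and 3 rose and 3 fell in pcDNA cells. The median of all 33 was -0.02 in pCTSH1 cells (0.04 with cyclic loess scaling) and 0.02 in pcDNA cells, against -0.04 over all probe sets in each line.

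Psma6, the α1 subunit, read 11.58, 11.57 and 11.38 at 0 h, 12.02, 12.10 and 12.08 at 6 h and 11.90, 11.87 and 12.00 at 16 h in pCTSH1 cells. In pcDNA cells it read 11.51, 11.61 and 11.46 at 0 h, 12.20, 12.19 and 12.22 at 6 h and 11.85, 11.85 and 12.04 at 16 h. All cytokine arrays lay above all 0 h arrays in both lines, with 6 h above 16 h. The 6 h rise was 0.55 ± 0.08 in pCTSH1 cells (limma adjusted p = 2.33e-05) and 0.67 ± 0.08 in pcDNA cells (adjusted p = 1.58e-06), which is 1.47-fold and 1.6-fold. Psma4, the α3 subunit, whose tail helps hold the gate closed in yeast, read 10.60, 10.66 and 10.65 at 0 h, 11.19, 11.09 and 11.21 at 6 h and 10.86, 10.83 and 10.85 at 16 h in pCTSH1 cells and 10.73, 10.53 and 10.74 at 0 h, 11.21, 11.28 and 11.20 at 6 h and 10.79, 10.77 and 10.74 at 16 h in pcDNA cells. Its 6 h arrays were again apart from and above those at 0 h (limma log2 differences 0.52 ± 0.07 and 0.56 ± 0.07).

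Psma3, the α7 subunit, took another course after the same start. Its levels were 8.79, 8.66 and 8.66 at 0 h, 9.28, 9.12 and 9.27 at 6 h and 8.47, 8.26 and 8.43 at 16 h in pCTSH1 cells. They were 8.72, 8.71 and 8.56 at 0 h, 9.29, 9.15 and 9.30 at 6 h and 8.17, 8.22 and 8.24 at 16 h in pcDNA cells. The arrays at 6 h were the highest and those at 16 h the lowest in each line, with no overlap between the 3 times. The rise at 6 h was 0.52 ± 0.08 in pCTSH1 and 0.58 ± 0.08 in pcDNA cells, while at 16 h Psma3 fell below 0 h, with log2 differences of -0.32 ± 0.08 and -0.45 ± 0.08 (limma adjusted p = 0.00389 and 0.000132). The pCTSH1 call at 16 h was lost when arrays were centred on their medians. The other alpha genes rose at 6 h by between 0.34 (Psma2, the α2 subunit) and 0.48 (Psma7, the α4 subunit) in pCTSH1 cells, and between 0.41 (Psma2) and 0.45 (Psma5, the α5 subunit) in pcDNA cells. Psma7 read 12.31, 12.25 and 12.30 at 0 h, 12.80, 12.73 and 12.74 at 6 h and 12.56, 12.67 and 12.57 at 16 h in pCTSH1 cells and 12.31, 12.30 and 12.42 at 0 h, 12.81, 12.79 and 12.71 at 6 h and 12.64, 12.58 and 12.58 at 16 h in pcDNA cells, with the 6 h arrays highest and the 0 h arrays lowest. A second, dimmer probe set of Psma7 did not pass the test and had the opposite sign at 6 h (-0.12 in pCTSH1 and -0.29 in pcDNA cells). The 6 h call of Psma7 was lost when the probe sets of a gene were averaged. Psma5 read 11.52, 11.58 and 11.60 at 0 h, 12.02, 11.94 and 12.00 at 6 h and 11.74, 11.73 and 11.79 at 16 h in pCTSH1 cells and 11.58, 11.68 and 11.64 at 0 h, 12.06, 12.10 and 12.08 at 6 h and 11.72, 11.75 and 11.72 at 16 h in pcDNA cells, where the 6 h arrays also stood above the rest.

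**Figure D1:**
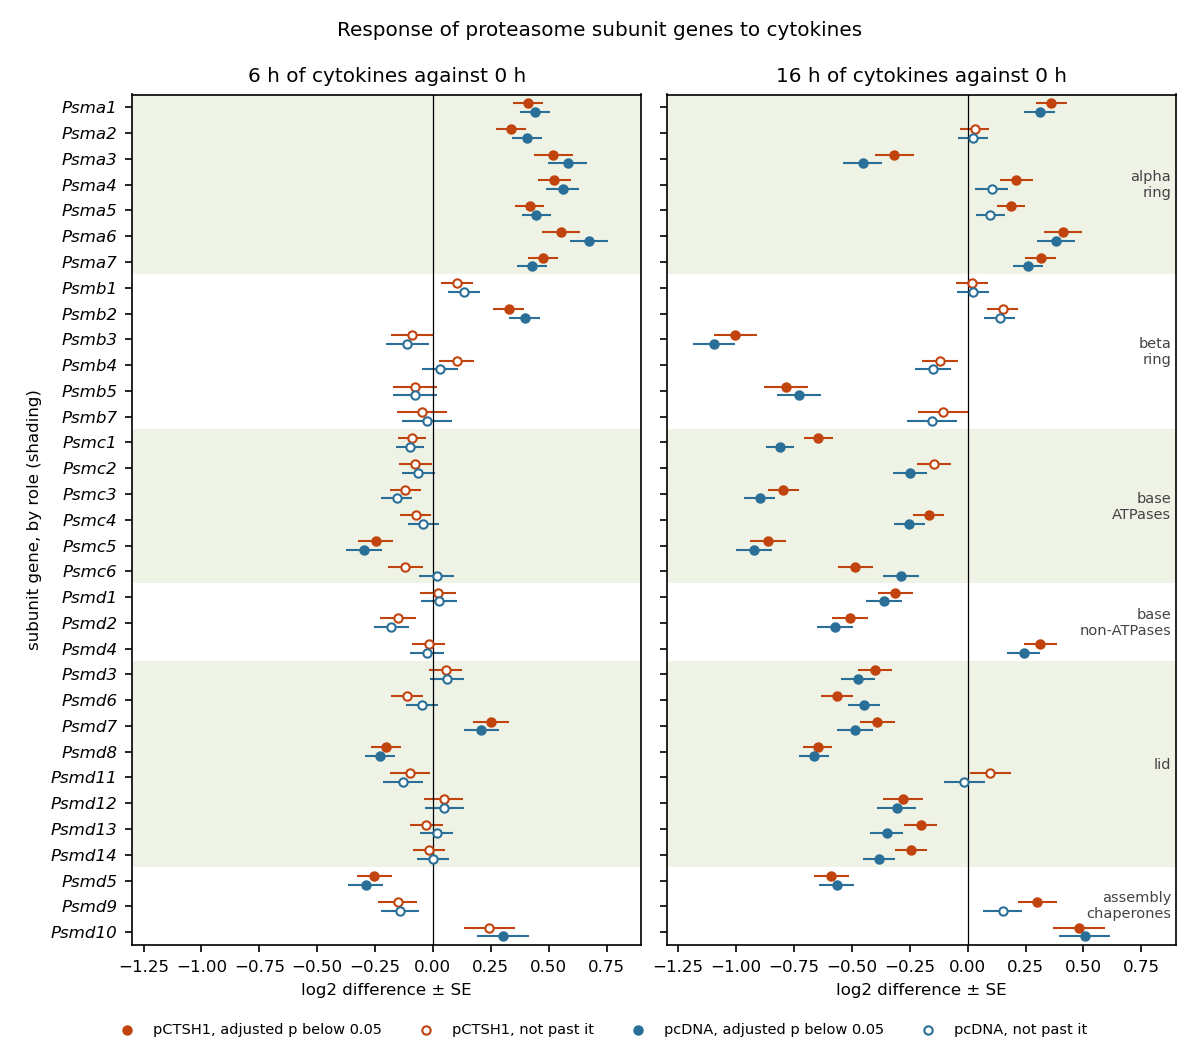
Log2 difference (x axis) of each of the 33 subunit genes (rows, by role) after 6 h (left) and 16 h (right) of cytokines against 0 h, with standard errors, in pCTSH1 cells (upper mark of a row) and pcDNA cells (lower mark); filled marks passed the limma threshold. At 6 h all 7 alpha ring genes lie right of 0 in both lines, and at 16 h 18 genes in pCTSH1 and 19 in pcDNA cells are filled to the left of 0.

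Within the beta ring, Psmb2, the non-catalytic β4 subunit, was the single gene of 6 that rose at 6 h (0.33 ± 0.07 in pCTSH1 and 0.40 ± 0.07 in pcDNA cells, limma adjusted p = 0.000731 and 8.32e-05). It read 12.10, 12.15 and 12.20 at 0 h, 12.48, 12.47 and 12.49 at 6 h and 12.31, 12.31 and 12.29 at 16 h in pCTSH1 cells and 12.02, 12.20 and 12.22 at 0 h, 12.55, 12.53 and 12.54 at 6 h and 12.30, 12.26 and 12.29 at 16 h in pcDNA cells. The 6 h arrays were the highest of each line, and its 16 h difference from 0 h did not pass the test (0.15 ± 0.07 and 0.14 ± 0.07). In the cap, Psmd7, the lid partner of the deubiquitinase, rose at 6 h by 0.25 ± 0.08 in pCTSH1 and 0.21 ± 0.08 in pcDNA cells. That early call was lost without any 1 of 5 arrays in pcDNA cells and without either of 2 arrays in pCTSH1 cells. Its levels were 9.55, 9.50 and 9.60 at 0 h, 9.80, 9.75 and 9.86 at 6 h and 9.11, 9.07 and 9.31 at 16 h in pCTSH1 cells and 9.68, 9.57 and 9.66 at 0 h, 9.76, 9.91 and 9.87 at 6 h and 9.12, 9.11 and 9.22 at 16 h in pcDNA cells, so that 6 h lay above and 16 h below the 0 h arrays.

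Psmc5, an ATPase of the base, Psmd8, a lid subunit, and Psmd5, a chaperone of base assembly, were lower at 6 h in both lines. The values were -0.25 ± 0.08, -0.20 ± 0.06 and -0.25 ± 0.08 in pCTSH1 cells and -0.30 ± 0.08, -0.23 ± 0.06 and -0.29 ± 0.08 in pcDNA cells. In pCTSH1 cells these falls rest on single arrays: without 0 h replicate 1, 9 genes rose and 0 fell, without 6 h replicate 3, 8 rose and 0 fell, and without 0 h replicate 2, 8 rose and 1 fell. With cyclic loess scaling 10 rose and 0 fell in pCTSH1 cells at 6 h. Psmd5 read 10.54, 10.48 and 10.33 at 0 h, 10.24, 10.24 and 10.12 at 6 h and 9.87, 9.80 and 9.92 at 16 h in pCTSH1 cells and 10.43, 10.42 and 10.44 at 0 h, 10.17, 10.16 and 10.08 at 6 h and 9.78, 9.91 and 9.90 at 16 h in pcDNA cells. Its arrays did not overlap between any pair of times.

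At 16 h more subunits passed the test as lower than as higher than at 0 h, with the falls mainly in the cap and part of the beta ring. In pCTSH1 cells 8 of 33 genes rose and 18 fell against 0 h, where 20.8% of all probe sets rose and 25.6% fell (limma). In pcDNA cells 5 rose and 19 fell, where 21.3% rose and 25.1% fell. The median of the 33 was -0.20 in pCTSH1 and -0.29 in pcDNA cells, against 0.00 over all probe sets in each. With arrays centred on their medians it was -0.12 in pCTSH1 and -0.19 in pcDNA cells. The subunits are brightly read genes, and among the brighter 50% of probe sets, whose medians were -0.10 in pCTSH1 and -0.09 in pcDNA cells, 34.3% rose and 43.5% fell in pCTSH1 cells and 35.3% rose and 42.8% fell in pcDNA cells. Centring each array on its median gave 9 higher and 13 lower in pCTSH1 cells and 9 higher and 15 lower in pcDNA cells, with 9 and 14, and 9 and 16, under cyclic loess. These rescaled counts of fallers are near the shares of the brighter probe sets that fell without rescaling. Shares of all probe sets under the same scaling are not given here.

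The 19S cap carried most of the falls: 14 of its 17 genes fell and 1 rose in pCTSH1 cells, and 15 fell and 1 rose in pcDNA cells. Among the base ATPases 5 of 6 fell in pCTSH1 cells and all 6 in pcDNA cells. With arrays centred on their medians 4 of 6 fell in pCTSH1 and 3 of 6 in pcDNA cells. Psmc5 read 10.67, 10.57 and 10.56 at 0 h, 10.41, 10.37 and 10.29 at 6 h and 9.67, 9.75 and 9.80 at 16 h in pCTSH1 cells and 10.71, 10.69 and 10.58 at 0 h, 10.30, 10.38 and 10.41 at 6 h and 9.75, 9.64 and 9.82 at 16 h in pcDNA cells. Each later time lay below the one before it without overlap, and the 16 h difference was -0.86 ± 0.08 in pCTSH1 and -0.92 ± 0.08 in pcDNA cells (limma adjusted p = 9.07e-09 and 3.27e-09). Psmc3, a further ATPase, read 11.66, 11.68 and 11.61 at 0 h, 11.54, 11.54 and 11.53 at 6 h and 10.83, 10.79 and 10.95 at 16 h in pCTSH1 cells and 11.56, 11.56 and 11.60 at 0 h, 11.45, 11.38 and 11.40 at 6 h and 10.66, 10.60 and 10.76 at 16 h in pcDNA cells. Its 16 h arrays stood well below all others of the same line (-0.80 ± 0.07 and -0.90 ± 0.07). Psmc1, the ATPase whose tail opens the gate of the core in yeast, read 10.79, 10.70 and 10.69 at 0 h, 10.66, 10.63 and 10.61 at 6 h and 10.06, 10.09 and 10.09 at 16 h in pCTSH1 cells and 10.82, 10.86 and 10.87 at 0 h, 10.76, 10.75 and 10.75 at 6 h and 10.06, 10.01 and 10.05 at 16 h in pcDNA cells, also lowest at 16 h (-0.64 ± 0.06 and -0.81 ± 0.06). The smallest changes were those of Psmc2 and Psmc4, at -0.15 ± 0.07 and -0.17 ± 0.07 in pCTSH1 cells and -0.25 ± 0.07 and -0.25 ± 0.07 in pcDNA cells, of which Psmc2 in pCTSH1 cells did not pass the test. The call of Psmc4 in pCTSH1 cells (limma adjusted p = 0.0476) was lost without any 1 of 5 arrays and under 4 of 8 other alternatives, and that in pcDNA cells under 2 of 8. Psmc6 fell too (-0.49 ± 0.08 in pCTSH1 and -0.29 ± 0.08 in pcDNA cells).

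Of the 8 lid genes 7 fell at 16 h in each line, 4 of 8 in pCTSH1 and 6 of 8 in pcDNA cells with arrays centred on their medians. Psmd8 had the lowest log2 difference in both, reading 11.30, 11.32 and 11.26 at 0 h, 11.13, 11.09 and 11.05 at 6 h and 10.62, 10.63 and 10.69 at 16 h in pCTSH1 cells and 11.36, 11.43 and 11.34 at 0 h, 11.12, 11.14 and 11.19 at 6 h and 10.73, 10.69 and 10.73 at 16 h in pcDNA cells. No arrays of different times overlapped in either line (-0.65 ± 0.06 and -0.66 ± 0.06 at 16 h). Psmd14, the deubiquitinase that cuts off the ubiquitin chain, fell with log2 differences of -0.25 ± 0.07 in pCTSH1 and -0.38 ± 0.07 in pcDNA cells. Psmd3, Psmd6, Psmd12 and Psmd13, structural subunits of the lid, had log2 differences between -0.56 and -0.20 in pCTSH1 cells and between -0.47 and -0.31 in pcDNA cells. The pCTSH1 calls of Psmd12, Psmd13 and Psmd14 were lost with centring, with cyclic loess and in a fit on only the arrays compared. Leaving out 1 array kept that of Psmd12 in 5 of 6 fits and that of Psmd13 in 3 of 6. In pcDNA cells Psmd12 lost its call with centring and with cyclic loess. Psmd11 did not pass the test in either line (0.10 ± 0.09 and -0.01 ± 0.09), although a second probe set of it did. In the base, the scaffold Psmd1 fell (-0.31 ± 0.08 in pCTSH1 and -0.36 ± 0.08 in pcDNA cells), as did Psmd2, the scaffold on which ubiquitin shuttles dock (-0.51 ± 0.08 and -0.57 ± 0.08).

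Psmd4, a ubiquitin receptor of the base, was the 1 cap gene that rose. It read 10.53, 10.50 and 10.33 at 0 h, 10.43, 10.51 and 10.35 at 6 h and 10.71, 10.81 and 10.78 at 16 h in pCTSH1 cells and 10.56, 10.52 and 10.48 at 0 h, 10.53, 10.51 and 10.44 at 6 h and 10.77, 10.74 and 10.78 at 16 h in pcDNA cells. The 16 h arrays lay above all others of their line, and those at 0 h and 6 h overlapped. Its 16 h difference was 0.31 ± 0.07 in pCTSH1 cells and 0.24 ± 0.07 in pcDNA cells (limma adjusted p = 0.00112 and 0.00883).

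The 20S core split by gene. In the beta ring Psmb3, the non-catalytic β3 subunit, and Psmb5, the catalytic β5 subunit with the chymotrypsin-like activity, fell, and the other 4 did not pass the test at 16 h in either line. Psmb3 read 11.82, 11.96 and 11.81 at 0 h, 11.75, 11.77 and 11.80 at 6 h and 10.79, 10.76 and 11.04 at 16 h in pCTSH1 cells and 11.95, 11.95 and 11.88 at 0 h, 11.78, 11.77 and 11.89 at 6 h and 10.84, 10.67 and 10.99 at 16 h in pcDNA cells. The 16 h arrays were far below the rest, with log2 differences of -1.004 ± 0.092 and -1.10 ± 0.09, or 2.01-fold and 2.14-fold lower (limma adjusted p = 1.27e-08 and 3.42e-09). RefSeq names 7 pseudogenes of Psmb3 and 5 of Psma6, and whether these add to the signal of either gene was not tested. Psmb5 read 11.21, 11.25 and 11.03 at 0 h, 11.08, 11.10 and 11.08 at 6 h and 10.25, 10.38 and 10.50 at 16 h in pCTSH1 cells and 11.16, 11.23 and 11.01 at 0 h, 11.03, 11.03 and 11.11 at 6 h and 10.39, 10.27 and 10.56 at 16 h in pcDNA cells, with 16 h again apart and lowest (-0.79 ± 0.09 and -0.73 ± 0.09). Psmb7, the catalytic β2 subunit, overlapped between all pairs of times in both lines (-0.10 ± 0.11 and -0.16 ± 0.11). In the alpha ring 5 of 7 genes passed the test as higher than at 0 h in pCTSH1 cells and 3 of 7 in pcDNA cells. The count in pCTSH1 cells was 3 without 0 h replicate 1 or in a fit on only the arrays compared, which lost Psma4 and Psma5. The count in pcDNA cells was 5 with arrays centred on their medians and 2 at its lowest. Psma7 lost its 16 h call in pcDNA cells when the probe sets of a gene were averaged. Its second probe set did not pass at 16 h (0.11 in pCTSH1 and -0.05 in pcDNA cells). Psma1, the α6 subunit, read 11.68, 11.78 and 11.75 at 0 h, 12.16, 12.14 and 12.14 at 6 h and 12.13, 12.07 and 12.08 at 16 h in pCTSH1 cells and 11.71, 11.78 and 11.83 at 0 h, 12.25, 12.19 and 12.20 at 6 h and 12.09, 12.12 and 12.04 at 16 h in pcDNA cells. Its cytokine arrays were all above those at 0 h (0.36 ± 0.07 and 0.31 ± 0.07 at 16 h).

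**Figure D2:**
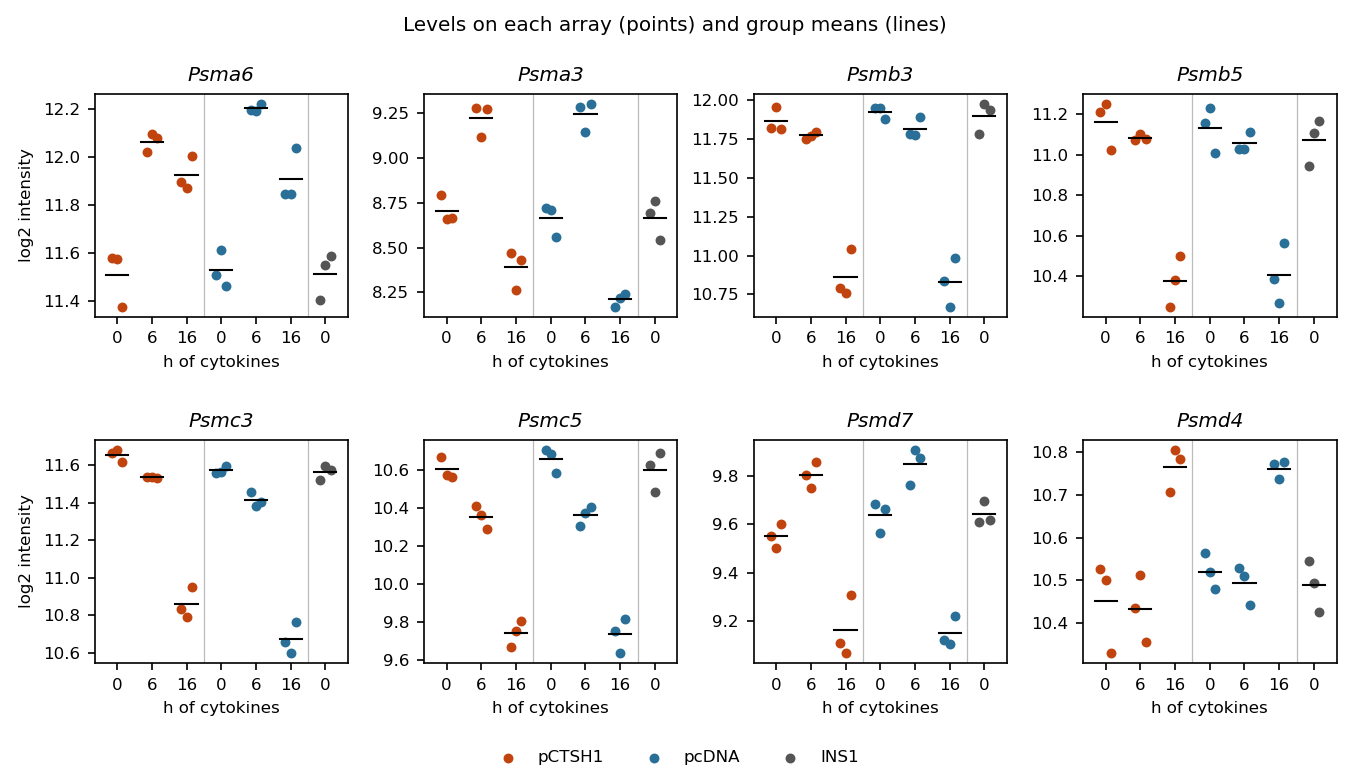
Log2 intensity (y axis) on each array (points) with group means (lines) for 8 subunit genes, by hours of cytokines (x axis) in pCTSH1, pcDNA and untreated INS1 cells; each panel has its own y range. Psma6 stays above 0 h at both times, Psma3 and Psmd7 are above it at 6 h and below it at 16 h, Psmb3, Psmb5, Psmc3 and Psmc5 are lowest at 16 h, and Psmd4 is highest at 16 h.

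The base assembly chaperones did not move as a group. Psmd10 (gankyrin) read 8.99, 9.06 and 8.74 at 0 h, 9.18, 9.21 and 9.13 at 6 h and 9.49, 9.47 and 9.28 at 16 h in pCTSH1 cells and 9.07, 9.03 and 9.11 at 0 h, 9.38, 9.42 and 9.33 at 6 h and 9.67, 9.76 and 9.29 at 16 h in pcDNA cells. Its 16 h arrays were above all 0 h arrays (0.48 ± 0.11 and 0.51 ± 0.11, limma adjusted p = 0.00118 and 0.000755). At 6 h it passed the test in pcDNA cells (0.30 ± 0.11), a call lost without any 1 of the 6 arrays compared, and not in pCTSH1 cells (0.24 ± 0.11). Psmd9 read 9.19, 9.03 and 8.91 at 0 h, 8.86, 8.95 and 8.86 at 6 h and 9.30, 9.44 and 9.30 at 16 h in pCTSH1 cells and 9.30, 9.24 and 9.07 at 0 h, 9.03, 9.07 and 9.09 at 6 h and 9.35, 9.42 and 9.29 at 16 h in pcDNA cells. At 16 h it was higher than at 0 h by 0.30 ± 0.08 in pCTSH1 cells, while 0.15 ± 0.08 in pcDNA cells did not pass the test. The difference between these responses did not pass either (0.15 ± 0.12, adjusted p = 0.835). A second, dimmer probe set of Psmd9 did not pass at 16 h in either line (0.23 in pCTSH1 and 0.11 in pcDNA cells). Psmd5 fell (-0.59 ± 0.08 and -0.57 ± 0.08).

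Between 6 and 16 h of cytokines 2 genes rose and 21 fell in pCTSH1 cells, where 19.4% of all probe sets rose and 21.9% fell (limma). In pcDNA cells 2 rose and 25 fell, where 20.2% rose and 22.0% fell. Of the brighter 50% of probe sets 33.6% rose and 39.3% fell in pCTSH1 cells, and 34.8% rose and 39.1% fell in pcDNA cells. Centring arrays gave 4 higher and 17 lower in pCTSH1 cells and 2 higher and 19 lower in pcDNA cells. The genes that rose were Psmd4 (0.33 ± 0.07 in pCTSH1 and 0.27 ± 0.07 in pcDNA cells) and Psmd9 (0.45 ± 0.08 and 0.29 ± 0.08). A second, dimmer probe set of Psmd9 did not pass the test (0.08 in pCTSH1 and 0.06 in pcDNA cells). The pcDNA call of Psmd9 was lost when the probe sets of a gene were averaged. The lowest values belonged to Psma3 (-0.84 ± 0.08 and -1.04 ± 0.08) and Psmb3 (-0.91 ± 0.09 and -0.99 ± 0.09), followed by Psmb5 and Psmc3 in pCTSH1 cells (-0.71 and -0.68) and by Psmc3 and Psmc1 in pcDNA cells (-0.74 and -0.71). In the alpha ring 4 of 7 fell over this interval in pCTSH1 cells and 6 of 7 in pcDNA cells. Of the 6, Psma7 (-0.17 ± 0.07) lost its call without any 1 of 5 arrays and under 5 of 8 other alternatives, and its difference was 0.035 when its probe sets were averaged. Across the 3 tests of a line, Psmb1, Psmb7 and Psmd11 passed none in either line. The same held for Psmc2 in pCTSH1 and Psmb4 in pcDNA cells.

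**Figure D3:**
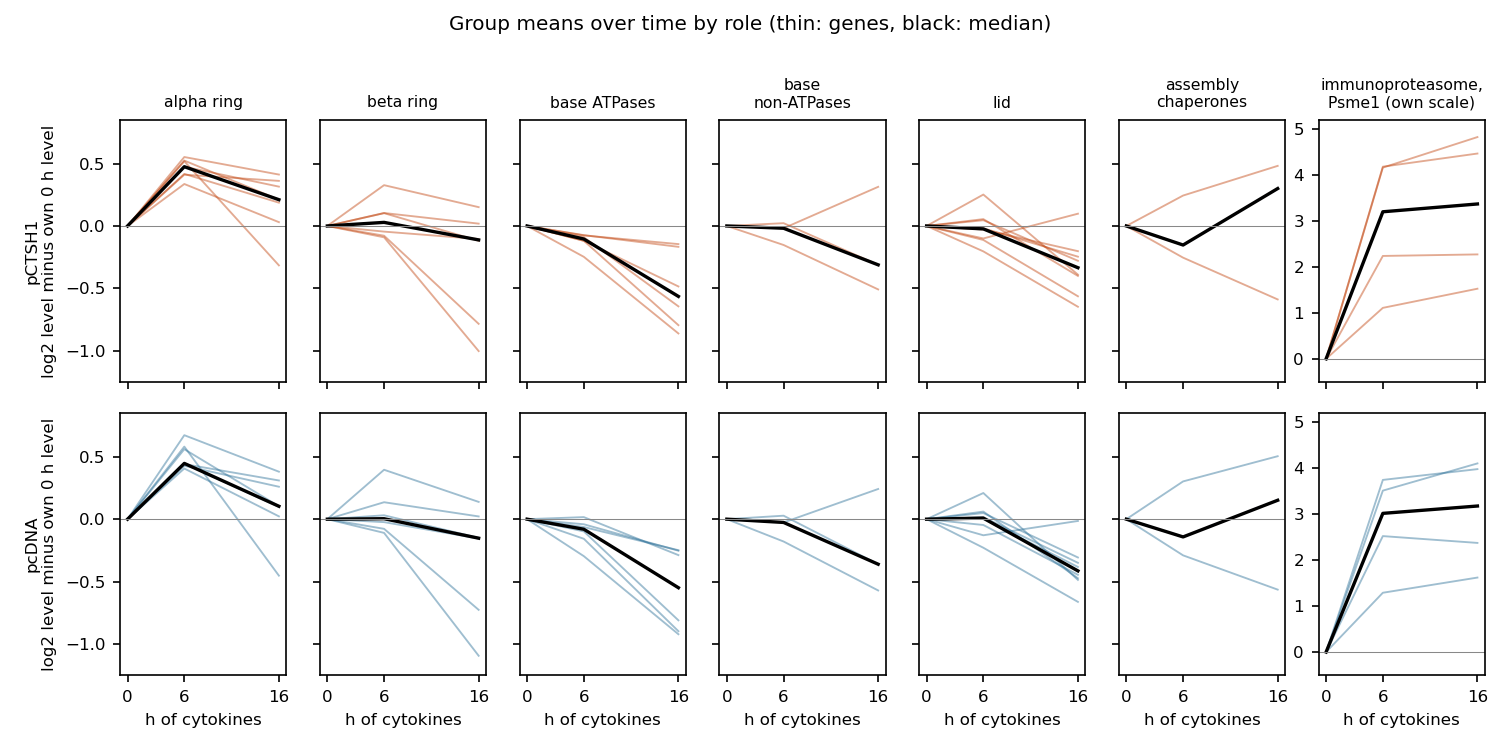
Mean log2 level minus the line's own 0 h mean (y axis) against hours of cytokines (x axis) in pCTSH1 (top) and pcDNA cells (bottom), 1 panel per role, with thin lines for genes and a black line for their median. The alpha ring peaks at 6 h (medians 0.48 and 0.45), the base ATPases and lid lie lowest at 16 h, and the immunoproteasome genes and Psme1, drawn on a wider scale, rise to between 1.53 and 4.83 in pCTSH1 and between 1.62 and 4.11 in pcDNA cells at 16 h.

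Between the lines the subunits were set side by side at each time. No subunit passed the test between pCTSH1 and pcDNA cells at 0, 6 or 16 h, where 1.87%, 2.86% and 3.8% of all probe sets did (limma), nor in the difference between the responses at 6 or 16 h, where 0.103% and 0.213% did. Unadjusted p was below 0.05 for 0, 0 and 4 of the 33 genes between the lines at 0, 6 and 16 h, where it was for 10%, 12.1% and 15.4% of all probe sets. It was for 0 genes in each response difference, where it was for 5.89% and 7.96% of all probe sets. The 4 at 16 h were Psmc3, Psmc6, Psma3 and Psmd6, a share no larger than that over the array. The 95% intervals of all 33 lay between -0.37 and 0.23 at 0 h, -0.43 and 0.26 at 6 h, and -0.40 and 0.36 at 16 h. Each interval is for a single gene, without adjustment for the 33. They rest on the spread among these arrays, which may be technical, so they do not exclude larger differences between the lines. At 16 h Psmc3 stood at 10.83, 10.79 and 10.95 in pCTSH1 cells, against 10.66, 10.60 and 10.76 in pcDNA cells, with no overlap. Its difference of 0.18 ± 0.07 (limma adjusted p = 0.159) passed under 2 of the alternatives, when the brighter 50% of probe sets were kept (0.0498) and with trend and robust eBayes settings (0.0217). Psmc6 had the lowest value at that time (-0.18 ± 0.08). At 6 h 28 of the 33 differences were negative, with a median of -0.08 against 0.00 over all probe sets, and 17 genes did not overlap between the lines, where 22.0% of all probe sets did not. At 0 h 6 genes did not overlap, where 15.7% of all did not, and at 16 h 7, where 17.1% did not.

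The responses of the lines, which share no arrays, had a Pearson correlation over the 33 genes of 0.986 at 6 h and 0.982 at 16 h, given as a description since the genes share arrays within a line. All 9 genes that rose in pCTSH1 cells at 6 h also rose in pcDNA cells, as 9 of 10 there. At 16 h the 18 that fell in pCTSH1 cells fell in pcDNA cells too, as 18 of 19 there, and 5 genes rose in both, of 8 in pCTSH1 and 5 in pcDNA cells. No gene was called in opposite directions. Shared calls and correlations were not computed over all probe sets, of which 0.103% at 6 h and 0.213% at 16 h passed in the response difference. The agreement is thus not shown to be particular to the subunits. Against untransfected INS1 cells no subunit passed in pCTSH1 cells at 0 h, where 2.57% of all probe sets did, or in pcDNA cells, where 0.00966% did, with 1 and 0 genes at an unadjusted p below 0.05, where 11.8% and 4.97% of all probe sets were.

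**Figure D4:**
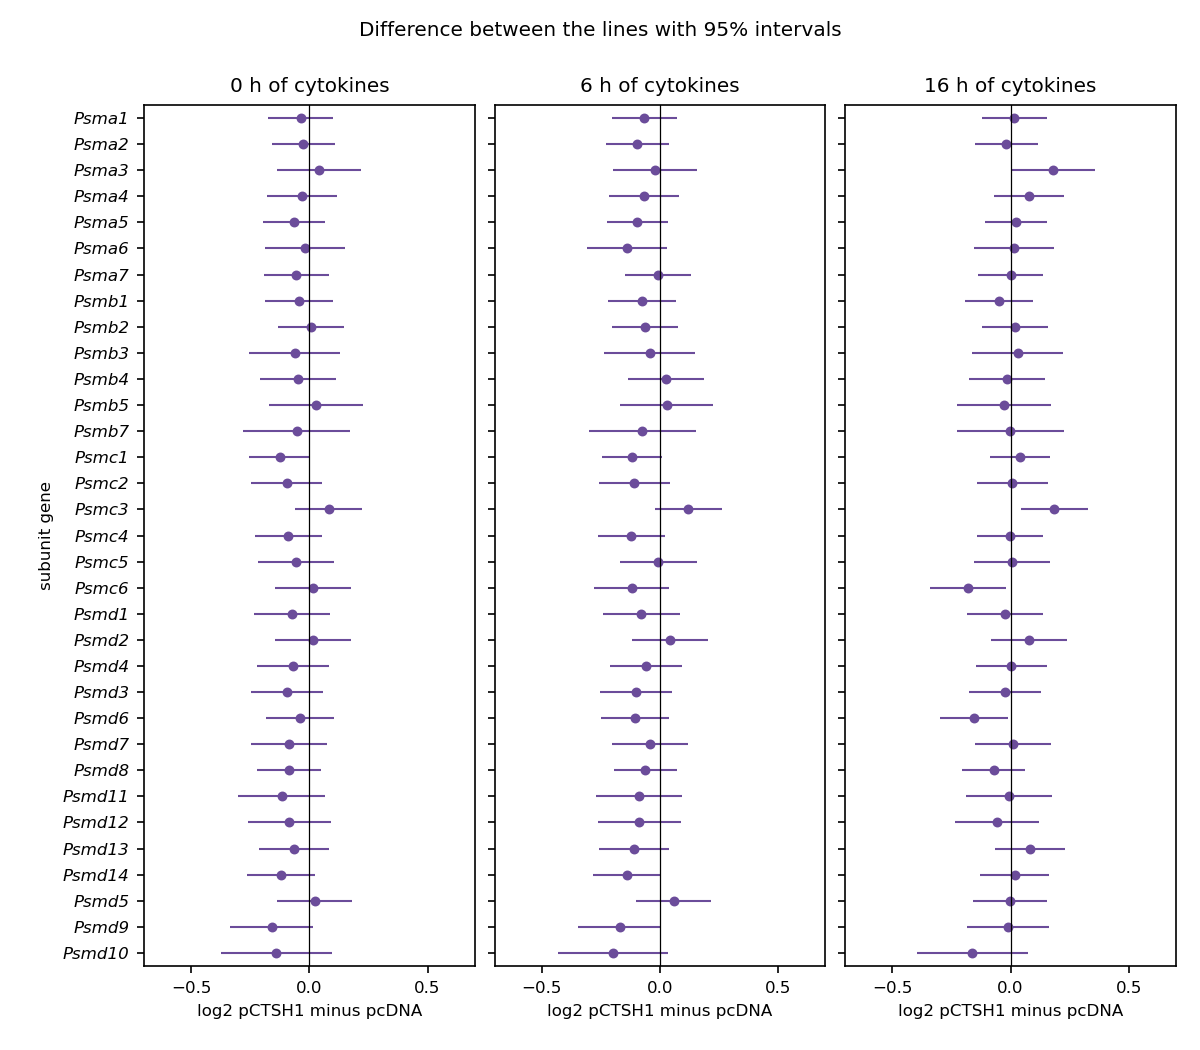
Log2 level in pCTSH1 minus pcDNA cells (x axis) with 95% intervals for each subunit gene (rows) after 0, 6 and 16 h of cytokines. No gene passed the adjusted test, and all intervals lie between -0.43 and 0.36.

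The immunoproteasome genes, listed with earlier results of these data known, give the scale of the cytokine response. The catalytic Psmb8, Psmb9 and Psmb10 and the activator subunit Psme1 all rose at both times in both lines, 4 of 4 measured on a list of 5. Of all probe sets 10.7% rose at 6 h and 20.8% at 16 h in pCTSH1 cells, and 12.1% and 21.3% in pcDNA cells. Psmb8, which takes the place of Psmb5, read 7.16, 7.34 and 7.32 at 0 h, 11.45, 11.43 and 11.43 at 6 h and 12.07, 12.17 and 12.06 at 16 h in pCTSH1 cells and 7.91, 8.02 and 8.07 at 0 h, 11.47, 11.55 and 11.51 at 6 h and 12.14, 12.11 and 12.07 at 16 h in pcDNA cells. Its 16 h differences were 4.83 ± 0.08 and 4.11 ± 0.08 (limma), and those of Psmb5 were -0.79 ± 0.09 and -0.73 ± 0.09. At 0 h Psmb8 and Psmb9 were lower in pCTSH1 than in pcDNA cells (-0.72 ± 0.08 and -0.52 ± 0.09). Psmb10, which takes the place of Psmb7, rose by 2.27 ± 0.10 in pCTSH1 and 2.38 ± 0.10 in pcDNA cells at 16 h, while Psmb7 did not pass the test in either line. Whether the changes of Psmb8 and Psmb5 are linked was not tested. Psme1 rose by 1.53 ± 0.08 and 1.62 ± 0.08.

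Other partners of the proteasome moved in both directions. Psmf1, an inhibitor of the 20S core, rose by 1.29 ± 0.08 in pCTSH1 and 1.17 ± 0.08 in pcDNA cells at 16 h, and the activator Psme4 did not pass the test. Of 5 measured assembly and binding factors on a list of 7, 3 rose and 1 fell at 16 h in each line, where 20.8% of all probe sets rose in pCTSH1 and 21.3% in pcDNA cells. Psmg1, a chaperone of alpha ring assembly, fell (-1.03 ± 0.08 and -1.003 ± 0.076), whereas its partner Psmg2 rose (0.42 ± 0.09 and 0.65 ± 0.09). Pomp, which helps beta subunits join the core, rose in pCTSH1 cells at 6 h (0.19 ± 0.06) and passed in no other comparison with 0 h. Among ubiquitin receptors, deubiquitinases and shuttles 6 of 12 measured fell at 16 h and 0 rose in each line, where 25.6% of all probe sets and 43.5% of the brighter ones fell in pCTSH1 cells and 25.1% and 42.8% in pcDNA cells. The shuttles Ubqln1 and Ubqln2 were lowest (-0.61 and -0.83 in pCTSH1, -0.65 and -0.76 in pcDNA cells), and the deubiquitinases Usp14 (-0.17 and -0.22) and Uchl5 (-0.30 and -0.33) fell with them.

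Transcription factors known to act on proteasome genes were read from the same arrays. Nfe2l1, which is known to raise subunit transcription when the proteasome is inhibited, read 6.33, 6.03 and 6.21 at 0 h, 6.39, 6.39 and 6.22 at 6 h and 8.54, 8.27 and 8.09 at 16 h in pCTSH1 cells and 6.29, 6.48 and 6.22 at 0 h, 6.54, 6.78 and 6.69 at 6 h and 8.24, 8.49 and 8.03 at 16 h in pcDNA cells. Its 16 h arrays were far above the rest (2.11 ± 0.13 and 1.93 ± 0.13, limma adjusted p = 2.19e-11 and 8.32e-11). Nfyb, a subunit of the CCAAT-binding NF-Y, read 8.27, 8.29 and 8.42 at 0 h, 9.27, 9.14 and 9.11 at 6 h and 7.36, 7.47 and 7.52 at 16 h in pCTSH1 cells and 8.22, 8.29 and 8.30 at 0 h, 9.33, 9.42 and 9.23 at 6 h and 7.51, 7.60 and 7.40 at 16 h in pcDNA cells. It was highest at 6 h (0.85 ± 0.09 and 1.05 ± 0.09) and lowest at 16 h (-0.87 ± 0.09 and -0.77 ± 0.09), without overlap between times. Nfya fell at 16 h (-0.41 ± 0.13 and -0.73 ± 0.13). The remaining NF-Y subunit, Nfyc, did not follow them: its 16 h differences were 0.18 ± 0.07 in pCTSH1 cells (limma adjusted p = 0.0461) and 0.14 ± 0.07 in pcDNA cells, which did not pass the test. Nfe2l2 rose at 16 h (0.43 ± 0.09 and 0.47 ± 0.09), whereas its 6 h differences were -0.20 ± 0.09 in pCTSH1 cells, which did not pass, and -0.50 ± 0.09 in pcDNA cells (limma adjusted p = 0.000207). Whether these levels bear on the subunit genes was not tested.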

How the data were processed

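Total RNA of 21 samples was hybridised to Affymetrix arrays, 1 array per sample. The deposited table holds log2 intensities per probe set, normalized by the authors with RMA and affy, per the submitters' processing notes, which also list limma and give no versions. Values ran from 2.77 to 13.99. Of 31137 probe sets, 95 controls were set aside and 31042 tested, dim ones included. The platform annotation gave 1 symbol for 19063, several for 572 and did not list 11407.

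Differences were tested with limma 3.58.1 in R 4.3.3 (lmFit and eBayes, default settings, 1 model of 7 group means over 21 arrays, two-sided), with Benjamini-Hochberg adjustment over the 31042 probe sets within each of 13 comparisons. An adjusted p below 0.05 was a call. Unless SD is written, ± gives the model's standard error. The model takes the spread as equal in all groups, though replicates lay further apart at 16 h. The script was tested on simulated data. Background on an array was the highest nonspecific control probe set, 3.88 to 4.17. Tables and plots used Python 3.11.15, pandas 2.3.3, scipy 1.17.1 and matplotlib 3.10.9.

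Subunits, other lists and tests were chosen with earlier results of these data known. All subunits may be named, with values on every array for the 4 highest and the 4 lowest past the threshold in a comparison and for others that results turn on. Levels are not compared between probe sets. RefSeq lists 33 pseudogenes of 14 of the subunits, so a probe set may also read a near-identical copy, and the values of those genes are uncertain to that extent. Psme2, Psme3, Psmg3 and Paaf1 had no single-symbol probe set and were not analysed here. Alternatives were array centring, cyclic loess, the brighter 50% of probe sets, trend and robust eBayes, array weights, a separate fit for the arrays of each comparison, averaging a gene's probe sets, the replicate number as a block, and leaving out each array compared in turn. Residuals of same-numbered arrays all correlated above 0.1 only between pCTSH1 and pcDNA and between pcDNA and INS1 cells at 0 h. That does not show that the other arrays were unpaired. Array number limits the precision.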

Additional observations from a re-analysis of the deposited data

How the results depend on the processing

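Of 194 counts of called subunits recomputed under the alternatives, 192 stayed within 1.5 times the reported count. The exceptions were both Psmc3 between pCTSH1 and pcDNA cells at 16 h. It was called when the brighter 50% of probe sets were kept and with trend and robust eBayes. Many of the 194 had a reported count of 0, which only a new call could move. The rule took both directions together, and a single direction could move further. In pCTSH1 cells at 6 h the fallers went from 3 to 0 with cyclic loess. In pcDNA cells at 16 h the risers went from 5 to 9 with centring or cyclic loess. Leaving out 1 array gave 8 to 12 calls at 6 h and 23 to 25 at 16 h in pCTSH1 cells, 11 to 12 and 23 to 24 in pcDNA cells, 21 to 23 and 25 to 28 between 16 and 6 h, and 0 to 0 in every comparison between lines. Of 125 called differences of single genes, 93 kept their call under all alternatives. Of 1750 recomputed gene values 1633 kept direction and call, 116 lost the call and 1 reversed: Psma7 in pcDNA cells, 16 h against 6 h, was 0.035 (limma adjusted p = 0.743) when its probe sets were averaged, which holds a second, dimmer one. A fit on only the arrays compared, which has fewer arrays to estimate the spread, gave 9 higher and 1 lower at 6 h and 6 and 14 at 16 h in pCTSH1 cells, and 9 and 2, and 5 and 18, in pcDNA cells. Scaling moved the median over the subunits by more than the spread between replicates (0.0401) in 10 cases, to -0.12 with centring and -0.10 with loess for pCTSH1 cells at 16 h and to -0.19 with each for pcDNA cells at 16 h; it shifted the median of all probe sets by at most 0.0980. The cause was not tested.

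Pairing by replicate number was checked by correlating residuals: over 21 pairs of groups they ran from -0.0903 to 0.244. All 3 were above 0.1 in 2 pairs, pCTSH1 with pcDNA cells at 0 h (0.106 to 0.239) and pcDNA with INS1 cells at 0 h (0.130 to 0.149). The block changed no call in either. Values for pCTSH1 with INS1 cells at 0 h ran from 0.068 to 0.168. A cutoff of 0.1 thus cannot show that the other arrays were unpaired. With the replicate number as a block 9 genes rose and 3 fell at 6 h and 8 rose and 18 fell at 16 h in pCTSH1 cells, 10 and 3, and 5 and 19, in pcDNA cells. Between 16 and 6 h the block gave 2 and 21 in pCTSH1 and 2 and 24 in pcDNA cells, and 0 in every comparison between lines.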

Other observations

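For 8 of the subunit genes the array holds 12 further single-symbol probe sets, and they did not always give the size or sign that the brightest one gave. Psmc6, an ATPase of the base, fell at 16 h with log2 differences of -0.49 in pCTSH1 and -0.29 in pcDNA cells on the probe set used (limma), -0.85 and -0.78 on a second of mean 9.23, and -1.68 and -1.64 on another of mean 7.06. A probe set of Psmc4, near background on some arrays, fell too (-0.90 and -1.23), against -0.17 and -0.25 on the one used. Psmd11, a lid subunit that passed no test on the probe set used, fell at 16 h on a second one of mean 10.9 (-0.25 in pCTSH1 cells, limma adjusted p = 0.017, and -0.41 in pcDNA cells). No probe set of a gene was called in the opposite direction to the one used, and 19 of 72 comparisons were called in both. Which transcripts these probe sets detect was not tested.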
